A study of Pan troglodytes with 217 samples.

Results

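The 9 genes described here encode proteins that set up the apical and basal sides of an epithelial cell. They are PARD3, PARD6B, PRKCI and PRKCZ of the Par complex, CRB3 of the Crumbs complex, EZR (ezrin) and RDX (radixin) of the ERM family, and LLGL2 and SCRIB of the Scribble group. They were chosen by symbol and looked up among the 33729 Ensembl chimpanzee gene identifiers of the count table. A total of 8 of the 9 symbols had an identifier, and PRKCZ, for which no identifier was paired with the symbol, was skipped. SCRIB had 2 identifiers, ENSPTRG00000020669, which held all of its 7026 reads, and ENSPTRG00000043504, which held 0. Reads that match both SCRIB copies may have gone uncounted, so its level is uncertain. Each of the other 7 genes had 1 identifier: ENSPTRG00000002415 for PARD3, ENSPTRG00000013620 for PARD6B, ENSPTRG00000015615 for PRKCI, ENSPTRG00000010367 for CRB3, ENSPTRG00000018748 for EZR, ENSPTRG00000004259 for RDX and ENSPTRG00000009647 for LLGL2.

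The cells came from chimpanzee blastoids, blastocyst-like structures, on day 4 of their formation from naive pluripotent stem cells. The cells had been maintained with an inhibitor of EZH2, the enzyme of PRC2, and were then moved through media with MEK and activin receptor inhibitors, lysophosphatidic acid and a ROCK inhibitor. All sequenced cells share this 1 condition, and neither the labels nor the methods give the blastoid, line or plate of a cell. The paper states that its cells came from several blastoids. It kept somewhat fewer cells than are kept here, with the same stated limits on reads and genes. Most of the mural trophectoderm was cut away by hand, so the shares of cell classes reflect that dissection. The cut mural part was dissociated as well, and no label tells whether a cell came from it.

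In an epithelial cell the Par complex, in which PARD3 and PARD6 proteins hold the atypical protein kinase C iota (PRKCI) or zeta (PRKCZ), and the Crumbs complex mark the apical membrane. LLGL and SCRIB proteins act on the basolateral side, and the kinase and LLGL proteins exclude each other from their domains. ERM proteins tie the apical membrane and its microvilli to cortical actin. In the mammalian embryo the outer cells that become trophectoderm are the first to polarize in this way, whereas epiblast and hypoblast arise from the inner cells and form epithelia later.

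Cells with at least 4000 reads and 8000 detected genes, a detected gene being one with a read, were kept, and 24 cells were left out. The kept cells formed 4 clusters, named from lists of lineage markers. The pair of trophectoderm-like clusters was told apart by the summed level of CCR7, which is on none of those lists. The epiblast-like cluster held 50 cells, the hypoblast-like cluster 32 cells, and the trophectoderm-like cells formed a CCR7-low cluster of 60 cells and a CCR7-high cluster of 51 cells. When the polarity genes were left out of the clustering, every kept cell stayed in its class, with 72 cells in the CCR7-low and 39 in the CCR7-high cluster. Levels are given in CPM, the reads of a gene scaled to a total of 1000000 reads on all genes, for single cells or from reads summed over the cells of a class. The 3 classes had a similar depth, with medians of 3951119, 3978823 and 3960857 reads per epiblast-like, hypoblast-like and trophectoderm-like cell. All cells count as 1 sample, so no difference between classes was tested. Intervals are 95% intervals of counting error over reads and leave out the spread between cells. The reads carry no molecular identifiers, so copies of 1 molecule may be counted more than once and the intervals may be too narrow. A difference is called here when the summed CPM of both classes lay at least 2-fold apart and at least 1 class reached 5 CPM.

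Markers of the other classes were present in the inner lineages. The summed level of the 12 trophectoderm markers ranged from 229.4 to 4868 CPM in epiblast-like cells, from 302 to 4680 CPM in hypoblast-like cells and from 3058 to 16857 CPM in trophectoderm-like cells. GATA3, a defining trophectoderm factor, had a summed level of 691 CPM in the trophectoderm-like class, against 70.4 CPM in the epiblast-like and 58.5 CPM in the hypoblast-like class. At least 3 trophectoderm and 3 epiblast or hypoblast markers reached 10 CPM in 49 of 50 epiblast-like, 30 of 32 hypoblast-like, 16 of 60 CCR7-low and 18 of 51 CCR7-high cells. Since nearly all inner-lineage cells met this minimum, one of 5 and 5 was added after the data were seen, and 24 of 50, 19 of 32, 2 of 60 and 4 of 51 cells met it. The part of such cells, or of RNA from other cells, in the levels below was not tested, and values without the cells of 5 and 5 markers are given where they change a call. The cells that remain are not free of mixed markers.

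All 8 matched polarity genes were read in every class, and 3 of them set the classes apart most. RDX was 3.44-fold higher in trophectoderm-like than in epiblast-like cells. PARD6B and LLGL2 were highest in hypoblast-like cells, at 3.95-fold and 3.21-fold their epiblast-like levels. PARD3 and PRKCI were lowest in trophectoderm-like cells. EZR, CRB3 and SCRIB differed by less than 2-fold among the 3 classes.

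**Figure D1:**
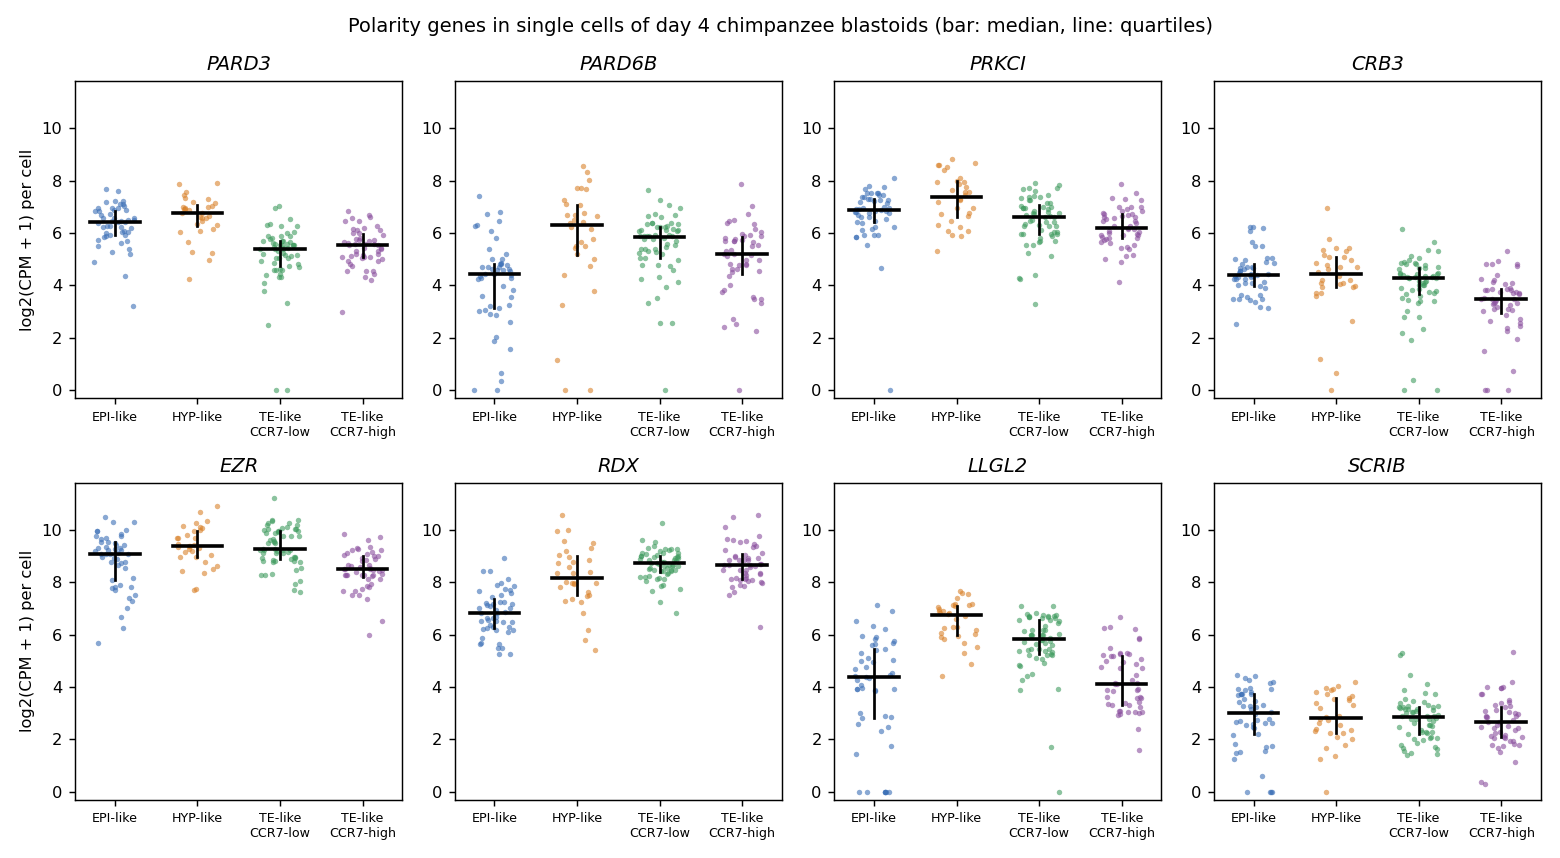
Each point is 1 cell, placed by its cluster on the x axis and by log2(CPM + 1) of the gene on the y axis, with bars at the medians and lines over the quartiles (EPI, epiblast; HYP, hypoblast; TE, trophectoderm). RDX points of epiblast-like cells lie low, with a median of 113.4 CPM, LLGL2 is highest in hypoblast-like cells, with a median of 107.2 CPM, and SCRIB overlaps in all 4 clusters.

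PARD3, the scaffold of the Par complex, ranged from 8.18 to 205.6 CPM in epiblast-like cells, with a median of 84.4 CPM. Hypoblast-like cells ranged from 17.8 to 238.7 CPM, with a median of 107.4 CPM. Trophectoderm-like cells ranged from 0 to 130 CPM, with a median of 41.5 CPM. The quartile ranges of trophectoderm-like cells did not overlap those of either inner lineage, and only 3 trophectoderm-like cells lay above the hypoblast-like median. From summed reads, the level was 103.3 CPM for the hypoblast-like, 87.3 CPM for the epiblast-like and 44.9 CPM for the trophectoderm-like class. The trophectoderm-like level was 0.435 times the hypoblast-like level (95% interval 0.425 to 0.444) and 0.514 times the epiblast-like level (0.504 to 0.524). Epiblast-like and hypoblast-like cells, next to each other in this order, had overlapping quartiles.

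PARD6B, the adaptor that links the kinase to CDC42, separated the inner lineages more than PARD3 did. In epiblast-like cells it ranged from 0 to 170 CPM, with a median of 20.6 CPM. In hypoblast-like cells it ranged from 0 to 379 CPM, with a median of 77.98 CPM. In trophectoderm-like cells it ranged from 0 to 231.4 CPM, with a median of 46.1 CPM. The classes overlapped in range, and hypoblast-like cells were the most spread, with quartiles of 34.5 and 134.8 CPM. The summed hypoblast-like level, 104.7 CPM, was 3.95 times the epiblast-like level of 26.5 CPM (95% interval 3.83 to 4.07), and 26 of 32 hypoblast-like cells exceeded the epiblast-like median. The trophectoderm-like level, 52.04 CPM, lay between them, at 0.497 times the hypoblast-like level (0.487 to 0.507) and 1.96 times the epiblast-like level (1.91 to 2.02). Both of the latter ratios lie at the 2-fold limit, and their calls depend on the weighting of cells and on the scaling. The hypoblast-like lead was smaller when each cell counted equally on the log2(CPM + 10) scale, at a log2 ratio to epiblast-like cells of 1.29 against 1.98 from summed reads.

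PRKCI, the kinase of the complex, was read in 49 of 50 epiblast-like cells and in every cell of the other classes. It ranged from 0 to 274 CPM in epiblast-like cells, with a median of 115.9 CPM. In hypoblast-like cells the range was 39.01 to 449 CPM and the median 166.2 CPM. In trophectoderm-like cells the range was 8.80 to 236.9 CPM and the median 84.4 CPM. The medians had the same order as the summed levels, 188.6 CPM for the hypoblast-like, 120.7 CPM for the epiblast-like and 93.3 CPM for the trophectoderm-like class, with overlapping quartiles at each step. The trophectoderm-like level was 0.495 times the hypoblast-like level (95% interval 0.487 to 0.502), again at the 2-fold limit. Without the cells with 5 markers of each kind, the log2 ratio of trophectoderm-like to hypoblast-like cells went from -1.02 to -0.75 for PRKCI and from -1.01 to -0.70 for PARD6B, and neither was called. The log2 ratio of PARD6B in trophectoderm-like over epiblast-like cells went from 0.97 to 1.16 without them and was called.

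Paralogues of the scaffold and the adaptor were compared by their share of the reads of their set, which is not corrected for transcript length and is therefore compared between classes only. PARD6B gave 85.5% of PARD6A, PARD6B and PARD6G reads in epiblast-like cells (95% interval 84.6% to 86.3%), 98.9% in hypoblast-like cells (98.7% to 99.1%) and 96.9% in trophectoderm-like cells (96.7% to 97.1%). The remaining epiblast-like reads came mostly from PARD6A, at 3.30 CPM against 0.27 CPM in the hypoblast-like and 0.59 CPM in the trophectoderm-like class. They came from part of the cells, since PARD6A was read in 22 of 50 epiblast-like cells and reached 10 CPM in 6. Over the 48 epiblast-like cells with at least 20 reads of the set, the PARD6B share had a median of 91.3% and quartiles of 68.7% and 100%. PARD3B, a relative of PARD3 that does not bind the atypical kinases, gave 5.14% of the PARD3 and PARD3B reads in epiblast-like and 9.31% in hypoblast-like cells. Within the trophectoderm-like cells its share differed between clusters. It was 31.6% in CCR7-low cells (30.9% to 32.3%), where 57 of 60 cells had a PARD3B read, and 6.65% in CCR7-high cells (6.22% to 7.10%), where 22 of 51 cells had one. The PARD3B level was 20.0 CPM in the former and 3.32 CPM in the latter, while the PARD3 level was 43.3 CPM and 46.6 CPM.

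CRB3, the small transmembrane protein that anchors the Crumbs complex in epithelia, ranged from 4.74 to 73.8 CPM in epiblast-like cells, with a median of 20.3 CPM. It ranged from 0 to 122.8 CPM in hypoblast-like cells, with a median of 20.5 CPM, and from 0 to 69.4 CPM in trophectoderm-like cells, with a median of 13.04 CPM. The 3 classes overlapped throughout. The summed trophectoderm-like level of 15.2 CPM was 0.633 times the epiblast-like level (95% interval 0.611 to 0.656) and 0.595 times the hypoblast-like level of 25.6 CPM (0.571 to 0.620). The order of the 2 inner lineages changed with the weighting of cells. CRB3 reached 10 CPM in 45 of 50 epiblast-like, 28 of 32 hypoblast-like, 47 of 60 CCR7-low and 27 of 51 CCR7-high cells. After thinning to 2532312 reads per cell, which left out 20 shallower cells, it did so in 44 of 48, 23 of 25, 45 of 54 and 25 of 46 cells, so the CCR7-high share was also lowest at equal depth. The other Crumbs genes were nearly unread, with CRB1 at no more than 0.0078 CPM and CRB2 at no more than 0.27 CPM in any of the 3 classes.

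EZR was read in every kept cell, and no class stood apart for it. It ranged from 50.5 to 1420 CPM in epiblast-like cells, with a median of 544 CPM, and from 208.7 to 1948 CPM in hypoblast-like cells, with a median of 670 CPM. In trophectoderm-like cells it ranged from 61.7 to 2353 CPM, with a median of 493 CPM. Quartiles overlapped in each pair of classes, and the largest ratio, hypoblast-like over epiblast-like cells, was 1.44 (95% interval 1.43 to 1.46). The trophectoderm-like clusters differed more, with 783 CPM in CCR7-low and 405 CPM in CCR7-high cells. That ratio of 0.517 (0.513 to 0.521) lay just inside the 2-fold limit, and 5 of 51 CCR7-high cells exceeded the CCR7-low median.

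RDX had the pattern that EZR lacked. It ranged from 37.05 to 480 CPM in epiblast-like cells, with a median of 113.4 CPM. In hypoblast-like cells it ranged from 41.5 to 1510 CPM, with a median of 289 CPM, and in trophectoderm-like cells from 76.8 to 1520 CPM, with a median of 409 CPM. Of the trophectoderm-like cells 98.2%, and of the hypoblast-like cells 28 of 32, exceeded the epiblast-like median, and the quartiles of epiblast-like cells overlapped neither of the others. The summed level of 462 CPM in trophectoderm-like cells was 3.44 times the 134.2 CPM of epiblast-like cells (95% interval 3.40 to 3.49), and the 392 CPM of hypoblast-like cells 2.92 times (2.88 to 2.97). Trophectoderm-like and hypoblast-like cells overlapped, at a ratio of 1.18 (1.17 to 1.19), and CCR7-high and CCR7-low cells stood at 469 and 456 CPM. Without the cells with 5 markers of each kind, the log2 ratio of trophectoderm-like to epiblast-like cells was 2.16 instead of 1.78.

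MSN (moesin), the third ERM gene, ran the other way and had the widest range of the wider polarity list among genes at 10 CPM or more. Its level was 31.6 CPM for the epiblast-like, 5.13 CPM for the hypoblast-like and 0.43 CPM for the trophectoderm-like class, a 73.4-fold range. MSN reads were present in 40 epiblast-like cells of 50, in 17 hypoblast-like cells of 32 and in 4 of 60 CCR7-low and 11 of 51 CCR7-high cells. Of the combined EZR, RDX and MSN reads, RDX gave 18.4% in epiblast-like (95% interval 18.2% to 18.6%), 32.4% in hypoblast-like (32.2% to 32.6%), 36.8% in CCR7-low (36.6% to 36.9%) and 53.6% in CCR7-high cells (53.4% to 53.8%). In single cells the RDX share varied widely, from 3.93% to 68.7% in epiblast-like cells and from 7.81% to 71.6% in hypoblast-like cells. Its medians were 19.9% and 30.9% in those classes, and 37.9% and 51.2% in CCR7-low and CCR7-high cells. The higher share in CCR7-high cells went with the lower EZR level there, as RDX was nearly equal in both clusters.

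**Figure D2:**
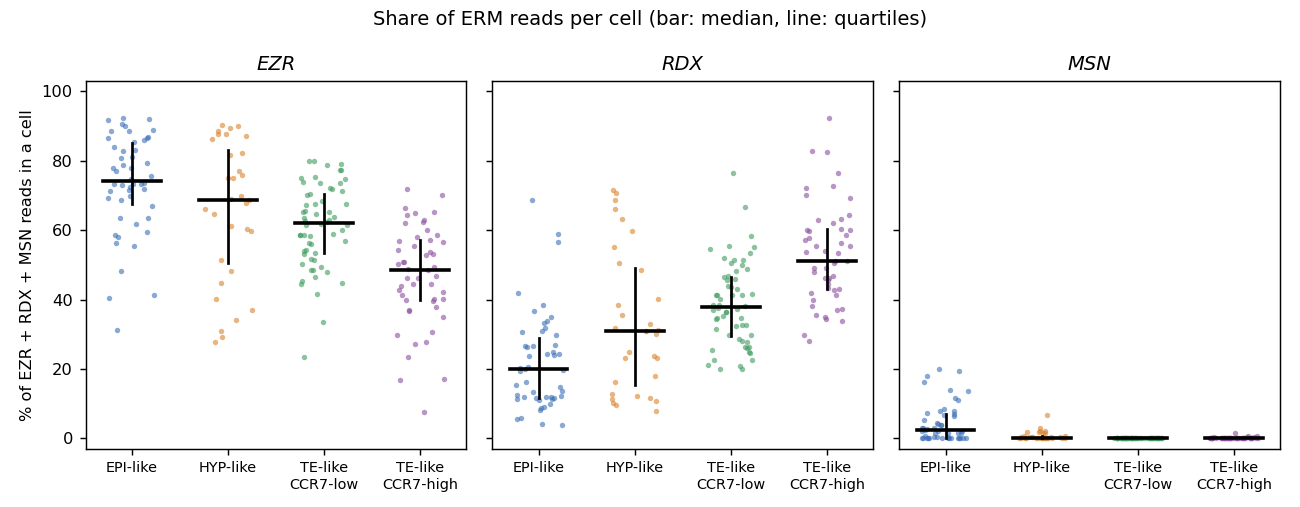
Each point is 1 cell, and the y axis gives the percent of its EZR, RDX and MSN reads that came from the gene named above the panel, with bars at the medians and lines over the quartiles. The median RDX share was 19.9% in epiblast-like and 51.2% in CCR7-high cells, and MSN shares above 10% occurred in epiblast-like cells alone, up to 20.0%.

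LLGL2, the basolateral protein that the atypical kinase phosphorylates, was highest in hypoblast-like cells. It ranged from 20.6 to 202.8 CPM there, with a median of 107.2 CPM. In epiblast-like cells it ranged from 0 to 138.1 CPM, with a median of 19.7 CPM, and in trophectoderm-like cells from 0 to 135.5 CPM, with a median of 37.002 CPM. All 32 hypoblast-like cells exceeded the epiblast-like median, whereas 5 trophectoderm-like cells exceeded the hypoblast-like median. The summed hypoblast-like level of 99.1 CPM was 3.21 times the epiblast-like level of 30.8 CPM (95% interval 3.12 to 3.31), and the trophectoderm-like level of 43.3 CPM was 0.437 times the hypoblast-like level (0.428 to 0.447). The trophectoderm-like and epiblast-like levels, at a ratio of 1.40 (1.37 to 1.44), had overlapping quartiles. Without the cells with 5 markers of each kind this log2 ratio went from 0.49 to 1.14 and passed the 2-fold limit, and the log2 ratio of hypoblast-like to epiblast-like cells went from 1.68 to 2.38. The former passed that limit in 2 of 15 alternatives of the processing. The latter was highest, at 2.59, on the mean of log2(CPM + 1), where each cell counts equally.

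LLGL2 was also the member that set the 2 trophectoderm-like clusters apart. CCR7-low cells ranged from 0 to 135.5 CPM, with a median of 56.1 CPM, and CCR7-high cells from 2.02 to 101.5 CPM, with a median of 16.6 CPM. The quartiles did not overlap, and 6 of 51 CCR7-high cells exceeded the CCR7-low median. The summed levels of 62.5 and 23.05 CPM gave a ratio of CCR7-high to CCR7-low cells of 0.369 (95% interval 0.358 to 0.380), a log2 ratio of -1.44. When the polarity genes took no part in the clustering, some cells changed cluster, to 72 CCR7-low and 39 CCR7-high cells, and the log2 ratio was -1.80. Leaving out the marker lists instead gave the same cluster sizes. With the polarity genes kept and a clustering resolution of 0.5, the log2 ratio was -1.84. The larger ratio was thus not particular to leaving out the polarity genes, and its cause was not tested. Its relative LLGL1 was at 4.79 CPM or less in every class, and LLGL2 gave 86.6% of the reads of the pair in epiblast-like, 96.7% in hypoblast-like and 95.7% in trophectoderm-like cells.

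SCRIB, the basolateral scaffold, had similar levels in all classes, whereas the share of cells at 10 CPM was lowest in trophectoderm-like cells. Its median was 7.03 CPM for the epiblast-like, 6.03 CPM for the hypoblast-like and 5.86 CPM for the trophectoderm-like class, and its highest cells reached 21.2, 17.1 and 39.4 CPM. The summed levels of 8.16, 7.42 and 6.97 CPM lay within 1.17-fold of each other. At these levels SCRIB reached 10 CPM in 17 of 50, 11 of 32 and 15.3% of the cells of these classes, although it was read in 46 of 50, in 31 of 32 and in all of them.

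**Figure D3:**
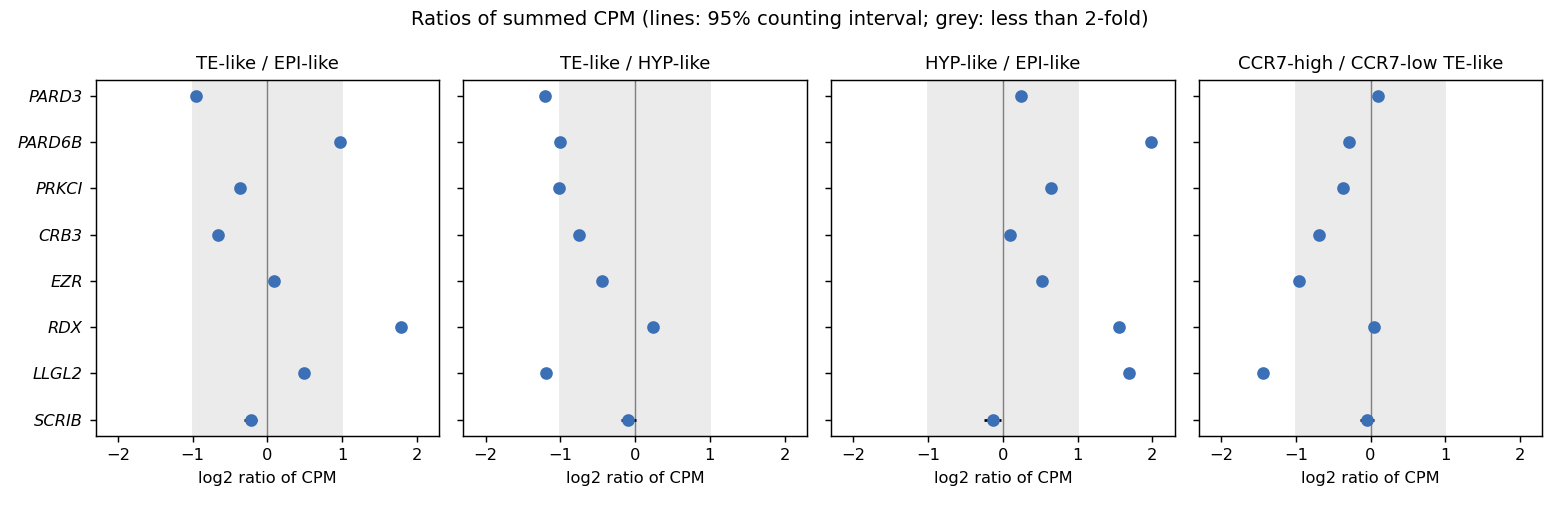
The x axis gives the log2 ratio of summed CPM for each gene on the y axis in 4 comparisons, with lines for the 95% counting interval, which is mostly narrower than the point, and grey over ratios of less than 2-fold. RDX lies at 1.78 in the first panel, PARD3, PARD6B, PRKCI and LLGL2 at or just past -1 in the second, PARD6B, RDX and LLGL2 past 1 in the third, and LLGL2 at -1.44 in the fourth.

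The calls over the 8 genes were set beside those over all identifiers at 5 CPM or more. In trophectoderm-like against epiblast-like cells, 1 of 8 genes was called higher (RDX) and 0 lower, with 10.2% of 9973 identifiers called higher and 19.3% called lower. The median log2 ratio of the 8 genes was -0.07, beside -0.11 for all identifiers. In trophectoderm-like against hypoblast-like cells, 0 of 8 were called higher and 4 lower (PARD3, PARD6B, PRKCI and LLGL2), with 10.9% of 9508 identifiers called higher and 12.1% lower. That median was -0.88, beside 0.03 for all identifiers. Hypoblast-like against epiblast-like cells had 3 of 8 called higher (PARD6B, RDX and LLGL2) and 0 lower, with 5.91% of 9798 identifiers called higher and 13.6% lower, and medians of 0.59 and -0.14. CCR7-high against CCR7-low cells had 0 of 8 called higher and 1 lower (LLGL2), with 7.99% of 9229 identifiers called higher and 5.94% lower, and medians of -0.32 and 0.06. The first 3 comparisons share their classes pairwise and are not independent of one another. Scaling by TMM moved the log2 ratios of trophectoderm-like and of hypoblast-like over epiblast-like cells by 0.20 and 0.16. PARD6B was then called in the first of these comparisons too. In trophectoderm-like against hypoblast-like cells, PARD6B at -0.993 and PRKCI at -0.9995 were then no longer called.

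At least 1 read of every matched gene was found in most cells, whereas fewer cells had 10 CPM of all but SCRIB. Reads of all 8 genes were found in 39 of 50 epiblast-like, 28 of 32 hypoblast-like, 56 of 60 CCR7-low and 47 of 51 CCR7-high cells, and no cell had reads of fewer than 5. With SCRIB set aside, all 7 other genes reached 10 CPM in 23 of 50 epiblast-like, 26 of 32 hypoblast-like, 40 of 60 CCR7-low and 19 of 51 CCR7-high cells. The cells of a cluster are not replicates, so these counts carry no interval. Epiblast-like cells were short of PARD6B and LLGL2, which reached 10 CPM in 35 and 34 of 50 cells. CCR7-high cells were short of CRB3 and LLGL2, which did so in 27 and 35 of 51 cells.

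Correlations between the genes from cell to cell within a class were weak. Over the 28 pairs, the median Spearman correlation of CPM was 0.04 over the 50 epiblast-like, 0.11 over the 32 hypoblast-like, 0.05 over the 60 CCR7-low and 0.07 over the 51 CCR7-high cells. EZR and LLGL2 had the highest value in epiblast-like cells, 0.52, and in CCR7-high cells, 0.53, but stood at 0.10 in hypoblast-like and 0.04 in CCR7-low cells. The highest pair in hypoblast-like cells was PARD3 with SCRIB, at 0.51. Over all kept cells, which share 1 sample and differ in class and depth, the correlation of each gene with the total reads of a cell lay between -0.07 and 0.13. Within clusters it ranged from -0.10 to 0.10 in epiblast-like, -0.35 (PARD3) to 0.37 (EZR) in hypoblast-like, -0.15 to 0.38 (EZR) in CCR7-low and -0.23 to 0.33 (PARD6B) in CCR7-high cells. Each gene was also compared, over all kept cells together, with 10623 genes read in at least 50% of them. Differences between classes enter these values. Those most like RDX were NENF, IGF2BP1 and STARD10, at 0.65, 0.64 and 0.63. Those most like LLGL2 were S100A14, MX2 and GATA6, at 0.65, 0.65 and 0.64. GATA6, a transcription factor on the hypoblast list that named the clusters, was also the gene most like PARD6B, at 0.54. Its own level was 306 CPM in the hypoblast-like, 156.6 CPM in the CCR7-low, 49.7 CPM in the CCR7-high and 33.97 CPM in the epiblast-like cluster. NPEPPS, BAMBI and NRG1 were most like PARD3, at 0.61, 0.59 and 0.57, and MX2, PGD and CNN3 most like EZR, at 0.56, 0.54 and 0.53. No gene reached 0.5 with PRKCI, CRB3 or SCRIB, whereas 87 genes did so with RDX, 37 with PARD3, 30 with LLGL2, 9 with EZR and 1 with PARD6B.

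The wider list of 52 polarity genes, of which 51 had an identifier, was counted by the same rule without the members. In trophectoderm-like against epiblast-like cells 5 of 30 genes at 5 CPM or more were called higher and 4 lower, beside 10.2% and 19.3% of all identifiers. Against hypoblast-like cells 7 of 30 were higher and 5 lower, beside 10.9% and 12.1%. In hypoblast-like against epiblast-like cells 5 of 29 were higher and 6 lower, beside 5.91% and 13.6%. In CCR7-high against CCR7-low cells 3 of 28 were higher and 5 lower, beside 7.99% and 5.94%. These differences from the share over all identifiers were not tested, and the counts of a few genes lie near several of those shares. The median log2 ratios of these genes were 0.16, 0.12, -0.11 and 0.04 in the 4 comparisons.

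Among the partners of ERM proteins, NHERF2, a PDZ adaptor of ERM proteins, stood at 12.6 CPM in the epiblast-like, 5.38 CPM in the hypoblast-like and 0.58 CPM in the trophectoderm-like class, a 21.9-fold range. NHERF1, its relative, had the reverse order, with 76.95, 120.5 and 220 CPM. PODXL (podocalyxin), an apical sialomucin, stood at 71.8 CPM in hypoblast-like cells, 11.3 times the 6.36 CPM of epiblast-like cells. The trophectoderm-like class had 8.10 CPM. Its median in hypoblast-like cells was 10.4 CPM and its highest cell 443 CPM, so the summed level rested on part of the cells. SLK, a kinase that activates ERM proteins, stood at 238.7 CPM in the hypoblast-like class, against 61.01 CPM in the epiblast-like and 65.7 CPM in the trophectoderm-like class. NHERF1 and SLK were picked for description after their values were seen.

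In the Scribble group, DLG3 and DLG5, which encode membrane-associated guanylate kinase scaffolds, had their highest level in different classes. DLG3 stood at 132.7 CPM in the epiblast-like, 31.4 CPM in the hypoblast-like and 34.6 CPM in the trophectoderm-like class. DLG5 stood at 12.5, 16.7 and 54.7 CPM, and at 29.03 CPM in CCR7-low and 81.9 CPM in CCR7-high cells. All 51 CCR7-high cells exceeded the DLG5 median of CCR7-low cells. WWC1 (KIBRA), a Hippo pathway scaffold that binds PATJ and the atypical kinases, stood at 25.1 CPM in the trophectoderm-like, 6.57 CPM in the epiblast-like and 4.29 CPM in the hypoblast-like class. PATJ, the Crumbs complex scaffold, described after its values were seen, stood at 89.4 CPM in CCR7-low and 20.9 CPM in CCR7-high cells, at a ratio of 0.234 (95% interval 0.227 to 0.241). MPP7, a junctional scaffold that binds DLG1 and was likewise picked after its values were seen, had the reverse order, with 13.2 and 43.6 CPM.

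**Figure D4:**
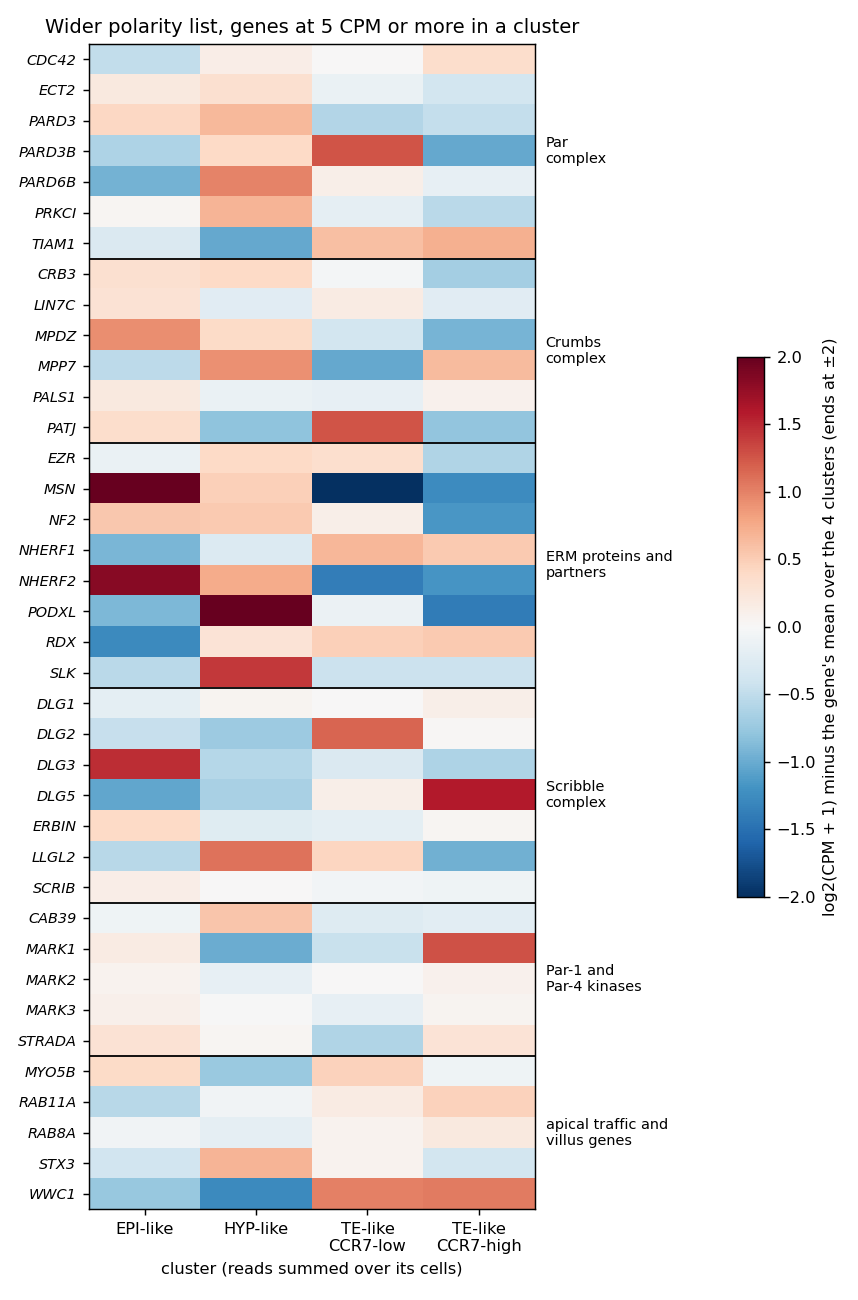
Rows are the 38 genes of the wider list at 5 CPM or more in a cluster, grouped by role, columns are the 4 clusters, and colour gives log2(CPM + 1) of the summed reads minus the gene's mean over the clusters, ending at 2 and -2. MSN and NHERF2 are reddest in epiblast-like cells, PODXL and SLK in hypoblast-like cells, PATJ and PARD3B in CCR7-low cells and DLG5 and MARK1 in CCR7-high cells.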

How the data were processed

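The authors deposited raw read counts for 33729 Ensembl chimpanzee identifiers in 217 single-cell SMART-seq2 libraries. The paper's methods name FastP for trimming and STAR for both alignment to a chimpanzee genome and gene counting. The submitters' processing notes instead name Trim Galore 0.6.6, STAR 2.7.7a and GRCh38, with no role given. The counting is not stated to use strand.

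Symbols were paired with 18783 identifiers, and the reads of the SCRIB identifiers were summed. Cells under 4000 reads or 8000 detected genes were left out, which kept 193 cells of 1679888 to 25630392 reads, and no pair of the 217 cells was identical. Doublets were not called. Scanpy 1.11.5 normalized the counts and clustered them on genes read in at least 20 cells (log1p, 50 components, 30 neighbours, Leiden at resolution 1, leidenalg 0.10.2, seed 0). Marker lists named the clusters, and the summed CCR7 level told the pair of trophectoderm-like clusters apart.

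Levels are CPM of summed reads with exact Poisson 95% intervals, and shares of reads have Clopper-Pearson intervals. With 1 sample and no replicates, no test was made. The members and lists were chosen with earlier results of these data known. Besides the members, their paralogues and the markers, wider-list genes were named at 4-fold or more between the 3 classes and 10 CPM in 1 of them, at most 15, and likeness genes at Spearman correlations of 0.5 or more, at most 3 per gene. Calculations ran in Python 3.11.15 (with scipy 1.17.1), and edgeR 4.0.16 gave TMM factors for an alternative scaling. The calculation of levels and ratios was run on simulated cells in known groups, with folds set in genes of higher level only. That run did not cover the clustering, the naming of classes or genes of low level. Alternatives covered the cell filter, clustering, fold, filter on low values, weighting of cells, scaling, depth and mixed cells.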

Additional observations from a re-analysis of the deposited data

Results flagged for a closer look

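The 24 cells left out by the filter, with a median of 1660770 reads and 6893.5 detected genes, were used in no comparison, and their class is not known. All 8 polarity genes had more than 3 reads over these cells. RDX stood at 464 CPM of their summed reads, EZR at 344 CPM, LLGL2 at 64.2 CPM and CRB3 at 7.76 CPM. The medians over these cells were lower, at 162.5, 208.2, 24.4 and 0 CPM in the same order. The highest RDX cell reached 2759 CPM. A CRB3 read was found in 7 of the 24 cells and an EZR read in 24 of 24.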

How the results depend on the processing

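Over 15 alternatives that kept at least 13 cells of each class, 14 for the CCR7 clusters, 2-fold calls held for RDX in trophectoderm-like over epiblast-like cells (log2 ratio 1.26 to 2.16), PARD3 and LLGL2 in trophectoderm-like against hypoblast-like cells (-1.33 to -1.11 and -1.49 to -1.08), PARD6B, RDX and LLGL2 in hypoblast-like over epiblast-like cells (1.29 to 2.17, 1.08 to 1.86 and 1.66 to 2.59) and LLGL2 in CCR7-high against CCR7-low cells (-1.84 to -1.08). A call for PARD6B and for PRKCI in trophectoderm-like against hypoblast-like cells held in 8 of 15. At resolution 1.5 no pair of trophectoderm-like clusters formed, so the CCR7 comparison has no value there.

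Counts of members called in trophectoderm-like against epiblast-like cells went from 1 to 4 at a fold of 1.5 and on the mean of log2(CPM + 1), to 2 without the highest cell of each class, with median-of-ratios scaling and with TMM, and to 3 without mixed cells by either minimum of markers. Against hypoblast-like cells they went from 4 to 0 at a fold of 3, and to 2 on the means of log2(CPM + 1) and log2(CPM + 10), without the highest cell, with TMM and without cells with 5 markers of each kind, an alternative chosen after seeing the data. In the CCR7 comparison they went from 1 to 3 at a fold of 1.5 and 0 at a fold of 3.

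Counts over the wider list with the 8 members included, in the order trophectoderm-like against epiblast-like, trophectoderm-like against hypoblast-like, hypoblast-like against epiblast-like and CCR7 clusters, were 10, 16, 14 and 9. They were 17 and 14 in the first and last at a fold of 1.5, 9, 6 and 4 in the last 3 at a fold of 3, 6, 8, 7 and 5 on the mean of log2(CPM + 10), and 19 in the first with no filter on low values.

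Over all identifiers tested, the shares called in either direction were, in the same order, 29.43%, 23.04%, 19.49% and 13.92%. They were 46.68%, 38.91%, 34.85% and 27.92% at a fold of 1.5, 18.1%, 13.43%, 10.36% and 7.25% at a fold of 3, 12.21%, 8.35%, 6.35% and 4.25% on the mean of log2(CPM + 10), and 44.48% in the first with no filter. Nothing particular to the members is read from counts that moved with these shares. On the mean of log2(CPM + 1), without the highest cell, with either scaling and without cells with 5 markers of each kind, the first share was 29% to 32.25% and the second 22.22% to 25.52%.

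Leaving out cells with 3 markers of each kind left 1 epiblast-like and 2 hypoblast-like cells. The wider counts were then 16, 25 and 24 in the first 3 comparisons and the members called in hypoblast-like against epiblast-like cells 5. The shares over all identifiers were 48.19%, 52.33% and 56.87%. Log2 ratios turned sign for PARD6B (3.68) and PRKCI (0.67) in trophectoderm-like against hypoblast-like cells and for PARD6B in hypoblast-like against epiblast-like cells (-1.37). Apart from settings that changed the fold, filter or number of cells, the cause of these moves was not tested.

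No paired analysis was possible because all cells form 1 group and no comparison had a test.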
